A study of Mus musculus with 8 samples.

Results

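The 10 genes described here are markers of liver sinusoidal endothelial cells: Lyve1, Stab1, Stab2, Clec4g, Fcgr2b, Kdr, Pecam1, Gata4, Wnt2 and Oit3. They were chosen by name out of 22180 genes on a whole-transcript array. Each had 1 probe set that the platform annotation ties to that gene symbol and no other. Liver RNA was measured in 8 samples from male C57BL/6J mice, 4 wild type and 4 carrying a knock-in of the TM6SF2 variant E167K. Tm6sf2 sits in the endoplasmic reticulum and helps load lipid onto lipoproteins. Wild type animals were littermates, per the labels. The sources used here give neither the number of knock-in alleles nor the ages of the mice. The labels contradict each other on the food of both groups: one text names a high-fat diet for 20 weeks, the other a sucrose-rich diet free of fat, or chow, for 14 weeks. Nothing in the labels states that every array came from its own mouse, so the p-values reflect spread among these samples only, and some of it may be technical.

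Sinusoidal endothelial cells line the blood channels between plates of hepatocytes. They form a porous wall without a full basement membrane and take up waste molecules from blood through scavenger receptors and lectins. They also send Wnt and BMP signals to hepatocytes, which set the gene program around the central vein and the output of hepcidin. The transcription factor GATA4 is known to keep this sinusoidal identity and to hold back a capillary-like one.

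No change in the marker set was detected between genotypes. The 10 genes split evenly, 5 higher (51.1% of all tested genes were higher) and 5 lower in the knock-in, with a median log2 change (knock-in minus wild type) of -0.0088, against 0.0046 over all 13449 genes tested. By limma with Benjamini-Hochberg adjustment over all tested genes, 0 of the 10 passed the threshold of 0.05, where 0.0669% of all tested genes passed, and the lowest adjusted p among them was 0.295. At an unadjusted p under 0.05 there was 1 of 10, Lyve1, against 11.3% of all tested genes. In 0 of 10 did the 4 knock-in arrays lie wholly apart from the 4 wild type arrays, which was so for 7.16% of all tested genes. Of the 10 genes, 8 had a 95% interval that lay within 1.5-fold in either direction, and Lyve1 and Wnt2 did not. This was so for 73.8% of all tested genes, so the count is near the background and not a trait of these markers. In whole liver, fewer cells of a type and less RNA per cell cannot be told apart.

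All 10 genes lay above the dim limit, the 40th percentile of each array's named probe sets (3.46 to 3.503), on all 8 arrays. Markers of the sinusoidal endothelium were therefore present in every sample. Several are not exclusive to it: Stab1 and Fcgr2b are also made by macrophages, Lyve1 by lymphatic endothelium and some macrophages, and Pecam1 by endothelium of all vessels and some blood cells. Array medians were 3.73 to 3.80, and any pair of arrays correlated at 0.973 to 0.980 over all probe sets.

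**Figure D1:**
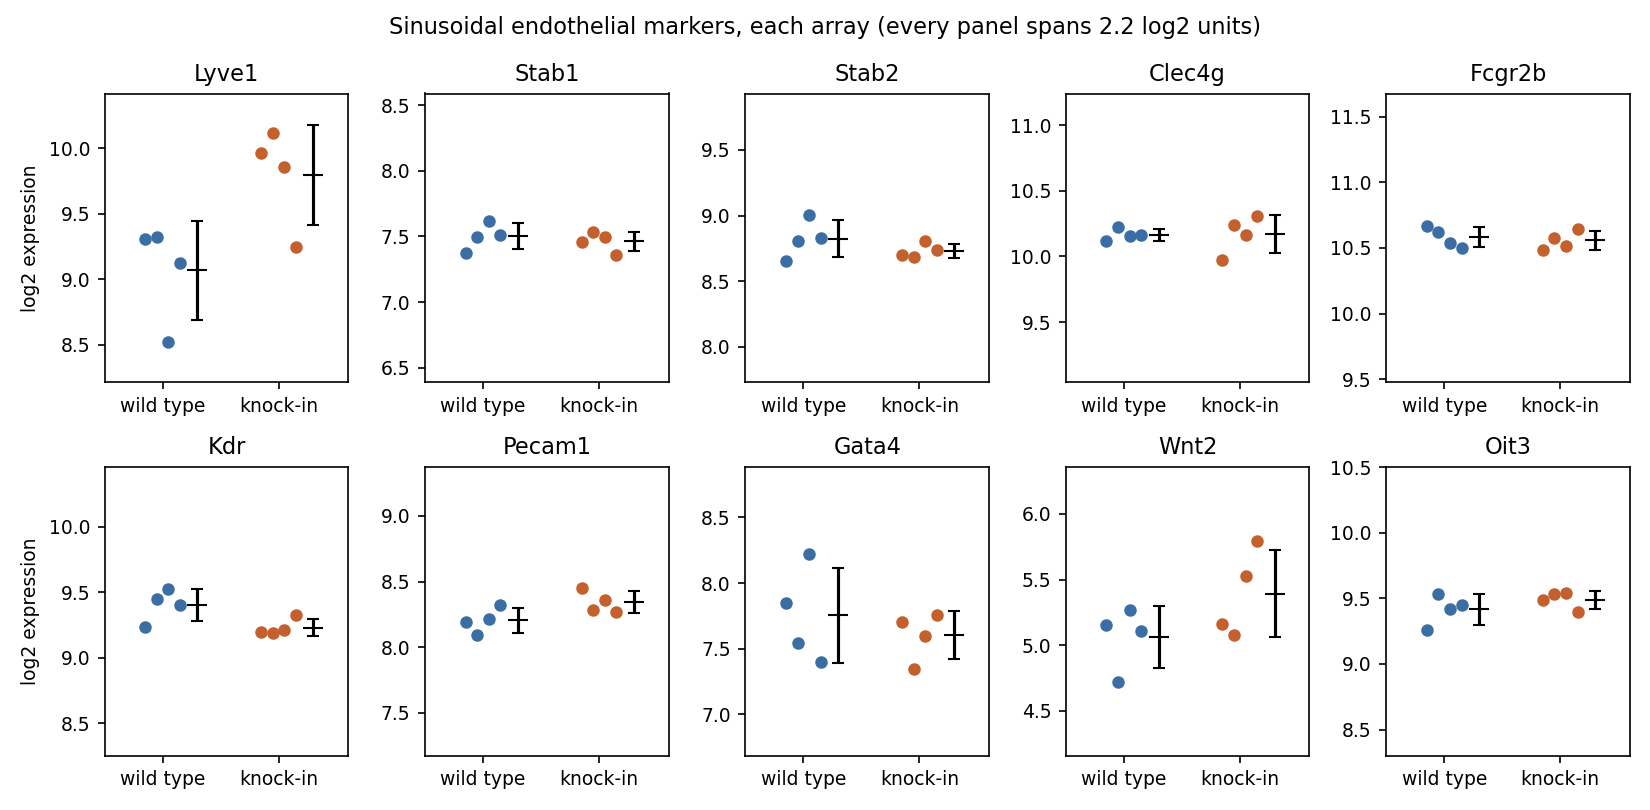
Log2 expression of the 10 markers (y axis, 1 panel per gene, all panels of equal height) in the 4 wild type (blue) and 4 knock-in (orange) arrays, 1 point per array, in order of replicate number, with the mean and SD of each group beside the points. Lyve1 had 3 knock-in arrays above all wild type arrays and 1 among them, and the groups overlapped in all 10 genes.

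Because Gata4 is a member and GATA factors bind a short motif, the RefSeq promoter sequences of the markers (build GRCm38.p6) were read for it. The table held 6 of the 10 genes: Stab1, Stab2, Clec4g, Fcgr2b, Kdr and Wnt2. The first motif searched was AGATAA. The second motif, AGATAG, differs from it in the last letter. The third motif was TGATAA. The last motif was TGATAG. All were searched on both strands in the 250 bases before the annotated start, and since they share a core, matches to different motifs can overlap. A match was present in 2 of these 6 promoters, Clec4g and Wnt2, against 26.5% of all 32851 promoters in the table. The stretches are shown because Wnt2 and Clec4g are the markers with a match; each is 60 bases, written 5′ to 3′ on the strand of the gene, with the matched letters in capitals. A match is a description of letters and not a measured binding site.
Clec4g: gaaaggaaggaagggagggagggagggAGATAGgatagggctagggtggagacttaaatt
Wnt2, far match: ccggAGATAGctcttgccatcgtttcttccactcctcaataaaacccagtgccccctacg
Wnt2, near match: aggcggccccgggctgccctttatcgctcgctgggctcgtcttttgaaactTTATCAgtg
The Clec4g stretch lies at chr8:3720681-3720740 on the minus strand, with the match beginning 62 bases before the start. The Wnt2 stretches lie at chr6:18030636-18030695 and chr6:18030446-18030505 on the minus strand, with matches that begin 246 and 9 bases before the start. The near match reads TGATAA on the opposite strand.

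Among the uptake receptors, Lyve1 had the largest difference of the 10 markers. Lyve1 is a receptor for hyaluronan, a large sugar polymer of the matrix. Its log2 values were 9.30, 9.32, 8.52 and 9.13 in wild type replicates 1 to 4 and 9.96, 10.11, 9.85 and 9.25 in knock-in replicates 1 to 4. Knock-in replicate 4 lay within the wild type range, the other 3 knock-in arrays lay above it, and wild type replicate 3 was the lowest of the 8. Wild type liver averaged 9.07 ± 0.38 and knock-in liver 9.79 ± 0.38 (SD, n = 4 each). This is a log2 change of 0.73 (SE 0.23, 95% interval 0.21 to 1.24), or 1.65-fold, with limma adjusted p = 0.295. An exact two-sided permutation test of the group means gave p = 0.0857, where 4 against 4 arrays can go no lower than 0.0286. Lyve1 was therefore higher on average by more than the SD within groups, but it did not pass the test over all genes. By unadjusted p it ranked 520 of 13449 tested genes.

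Stab1 and Stab2, the paired giant scavenger receptors that clear modified proteins from blood, were at nearly the same level in both genotypes. Stab2 read 8.66, 8.81, 9.004 and 8.83 in wild type replicates 1 to 4 and 8.70, 8.68, 8.80 and 8.74 in knock-in replicates 1 to 4. The knock-in values all lay within the wild type range. The change of Stab2 was -0.091 (limma adjusted p = 0.771, SE 0.09, 95% interval -0.30 to 0.12). Leaving out wild type replicate 3 gave -0.031, and leaving out replicate 1 gave -0.15. Stab1 ran from 7.38 to 7.62 in wild type against 7.36 to 7.54 in knock-in arrays, so the ranges overlapped almost wholly. Its change was -0.037 (95% interval -0.23 to 0.16), and it was 0.0019 without wild type replicate 3, so its sign is not settled.

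Clec4g, a lectin of the sinusoidal wall that binds sugars of glycoproteins, was at 10.11, 10.22, 10.16 and 10.17 in wild type and 9.97, 10.24, 10.16 and 10.31 in knock-in arrays. The wild type arrays lay inside the wider knock-in range. The change was 0.0069 (95% interval -0.20 to 0.22, limma adjusted p = 0.988), with a sign that turned in 3 of the 8 fits that left out 1 array. Fcgr2b, the inhibitory receptor for antibody constant regions that takes up immune complexes, was at 10.67, 10.62, 10.54 and 10.50 in wild type and 10.49, 10.58, 10.52 and 10.65 in knock-in arrays. The groups were interleaved, and the change was -0.024 (95% interval -0.21 to 0.16), with a sign that turned (0.0037) without wild type replicate 1. The 8 arrays of Fcgr2b spanned only 0.18 log2 units in all, the narrowest span of the 10 genes. Fcgr2b and Fcgr3 are close copies in their outer part, so the value of each copy is uncertain; Fcgr3 was at 0.034 (SE 0.21).

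Kdr, the main receptor for the vascular growth factor VEGF-A, had the lowest change of the 10. Its values were 9.24, 9.45, 9.52 and 9.40 in wild type and 9.20, 9.19, 9.21 and 9.33 in knock-in arrays. Wild type replicates 2, 3 and 4 lay above all knock-in arrays, and wild type replicate 1 lay below knock-in replicate 4. The means were 9.40 ± 0.12 and 9.23 ± 0.06 (SD, n = 4 each), and the change was -0.17 (limma adjusted p = 0.511, SE 0.09, 95% interval -0.37 to 0.03; exact permutation p = 0.0571).

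Pecam1, the junction protein shared by all endothelium, lay slightly the other way. It read 8.19, 8.09, 8.21 and 8.33 in wild type and 8.45, 8.28, 8.36 and 8.27 in knock-in arrays. Only wild type replicate 4 reached into the knock-in range. The change was 0.14 (limma adjusted p = 0.605, SE 0.09, 95% interval -0.06 to 0.33). Leaving out 1 array parted the groups in up to 2 of the 10 markers: Stab2 and Kdr without wild type replicate 1 (11.4% of all tested genes), Pecam1 without wild type replicate 4 (10.8%), and Lyve1 and Kdr without knock-in replicate 4 (12.1%). Without any of the other 5 arrays 0 of 10 were parted, against 9.66% to 11.1% of all tested genes.

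Gata4, the transcription factor of the set, varied widely within the wild type group, with 7.85, 7.55, 8.22 and 7.40 in replicates 1 to 4, against 7.70, 7.35, 7.60 and 7.76 in the knock-in. Apart from knock-in replicate 2, the knock-in arrays lay within the wild type range. The change was -0.15 (limma adjusted p = 0.811, SE 0.18, 95% interval -0.56 to 0.25), and it was 0.0037 without wild type replicate 3.

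Wnt2, a secreted Wnt ligand that sinusoidal cells near the central vein send to hepatocytes, was nearest to the dim limit of the 10. It read 5.15, 4.72, 5.27 and 5.11 in wild type and 5.16, 5.08, 5.53 and 5.79 in knock-in arrays. Knock-in replicates 3 and 4 lay above all wild type arrays, and replicates 1 and 2 lay among them. The change was 0.33 (limma adjusted p = 0.535, SE 0.18, 95% interval -0.08 to 0.74). It was 0.19 without knock-in replicate 4 and 0.21 without wild type replicate 2. Changes of dim probe sets are compressed on these arrays.

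Oit3, a protein with a zona pellucida domain that is made in the liver, was at 9.26, 9.54, 9.42 and 9.45 in wild type and 9.49, 9.54, 9.54 and 9.39 in knock-in arrays. The groups overlapped, and the change was 0.074 (95% interval -0.12 to 0.27, limma adjusted p = 0.812). Leaving out wild type replicate 1 gave 0.022, and leaving out replicate 2 gave 0.11.

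**Figure D2:**
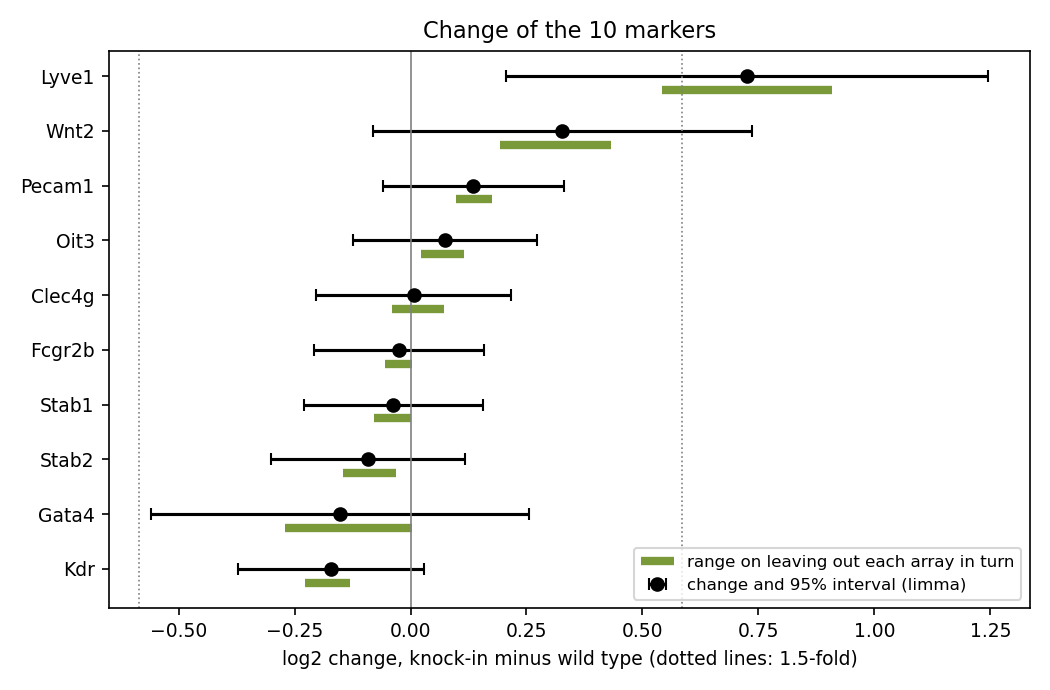
Log2 change, knock-in minus wild type (x axis), of the 10 markers (y axis, sorted by change), with the 95% interval from limma in black and, in green, the range of the change when each of the 8 arrays is left out in turn. Lyve1 is the marker whose interval stays clear of 0 (0.21 to 1.24). The dotted lines at 1.5-fold enclose the intervals of 8 of 10, against 73.8% of all tested genes.

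The markers did not deviate as one block within genotypes. Wild type replicate 3 had the highest value of all 8 arrays in Stab1, Stab2, Kdr and Gata4 and the lowest in Lyve1. Its Lyve1 value lay 0.55 below the wild type mean while its Gata4 value lay 0.47 above. Knock-in replicate 4 had the lowest knock-in values of Lyve1, Stab1, Pecam1 and Oit3 and the highest of Clec4g, Fcgr2b, Kdr, Gata4 and Wnt2. Lyve1 and Wnt2, the markers with the highest changes, were thus at opposite ends in that array, with Lyve1 at -0.55 and Wnt2 at 0.40 from the knock-in mean. Averaged over all 10 genes, the wild type arrays had log2 levels of 8.58 to 8.65 and the knock-in arrays 8.66 to 8.71. Without Lyve1 the ranges overlapped, at 8.4995 to 8.66 for wild type and 8.497 to 8.62 for knock-in, so the small gap in the mean of all 10 rested on Lyve1.

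As a description of likeness, each gene's deviations from its group means over the 8 arrays were set against the mean standardised deviation of the 10 markers. The 5 named genes outside all lists with the highest Pearson r were Atxn2l (0.987), Akap8 (0.973), Napa (0.968), Fgd2 (0.968) and Got1 (0.966). They are the top of the 13449 tested genes after all listed genes and unnamed gene models were left out, and were picked for this value. All points share the same 8 arrays, and no test applies. The markers themselves ran from -0.69 to 0.96 against that mean.

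**Figure D3:**
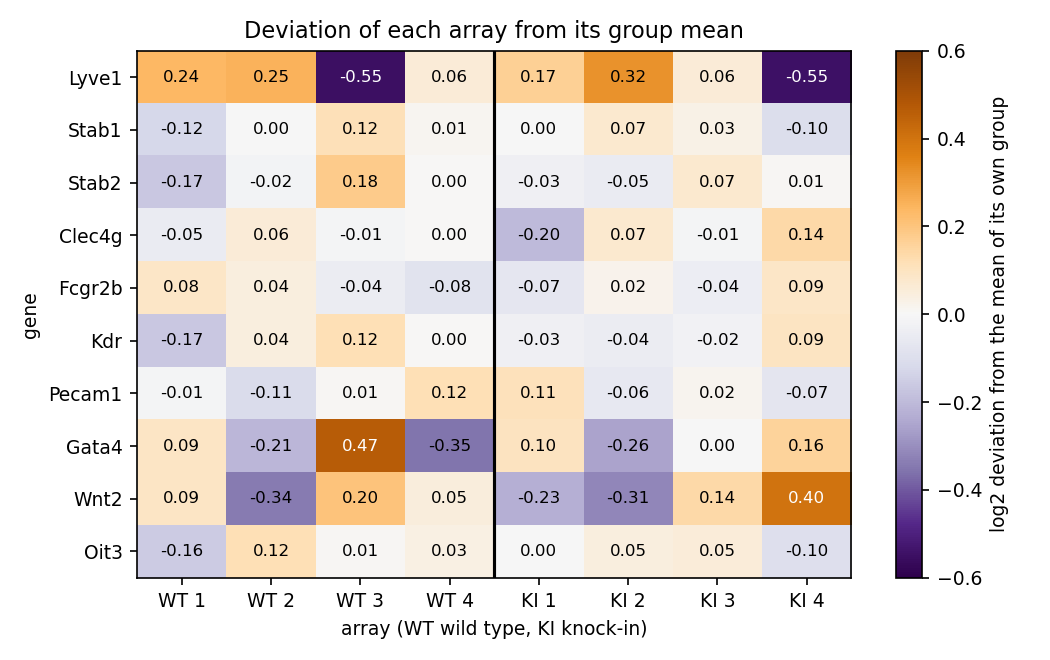
Deviation of each array (x axis, WT wild type and KI knock-in with replicate number) from the mean of its own group, in log2 units, for each of the 10 markers (y axis), with orange above and purple below the mean. Wild type replicate 3 and knock-in replicate 4 are the lowest arrays of their groups in Lyve1 (-0.55 each) and not in Kdr or Gata4.

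Other genes of the sinusoidal wall were set beside the markers. Of 19 tested, 8 were higher and 11 lower, 0 passed over all genes, and the median change was -0.061. F8, clotting factor VIII, was at -0.26 (SE 0.10, limma adjusted p = 0.377), from 9.91 to 10.29 in wild type against 9.80 to 9.96 in knock-in arrays. Thbd, the anticoagulant thrombin receptor, was at 0.35 (SE 0.11, limma adjusted p = 0.294), reading 5.51 to 5.80 in wild type against 5.76 to 6.15 in knock-in arrays. These were the 2 of the 19 with an unadjusted p under 0.05, a share near the 11.3% of all tested genes. The endocytic mannose receptor Mrc1 was at 0.013 (SE 0.07), close to Stab1 and Fcgr2b.

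Among 20 genes found in endothelium of all vessels, 13 were higher and 7 lower (12 and 8 after a further quantile normalization), with a median of 0.028 and 0 past the test. At unadjusted p under 0.05, 4 of 20 were higher, against 6.01% of all tested genes in that direction. In 3 of these, Egfl7, Emcn and Nos3, the groups did not overlap, against 3.96% of all tested genes that lay wholly higher. Egfl7, a secreted vessel protein, read 5.95 to 6.39 in wild type against 6.46 to 6.67 in knock-in arrays (change 0.40, SE 0.11, limma adjusted p = 0.228). Emcn, the surface mucin endomucin, was at 0.38 (SE 0.12), and Nos3, the endothelial nitric oxide synthase, at 0.41 (SE 0.14). Icam2, an adhesion molecule, was at 0.37 (SE 0.16). The junction protein Cdh5, which all endothelium shares, was at 0.00022 (SE 0.10), and Eng, Tek and Ptprb lay between -0.044 and -0.035.

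Genes of large vessels and of capillary-like endothelium had 12 of 17 tested members higher, with a median of 0.086 and 0 past the test. Vwf, von Willebrand factor, which is made mostly in large vessels and is scarce in sinusoids, had the lowest p of the endothelial genes. Its values were 5.39, 5.60, 5.48 and 5.16 in wild type and 6.14, 5.98, 5.73 and 6.26 in knock-in arrays. The groups did not overlap, and the change was 0.62 (SE 0.14, limma adjusted p = 0.162). The exact permutation p of 0.0286, the smallest possible, only restates the lack of overlap, which was found in 7.16% of all tested genes. Cd34, a surface protein of capillaries, read 5.12, 5.50, 5.41 and 5.14 in wild type and 5.86, 5.91, 5.60 and 5.82 in knock-in arrays. Its groups did not overlap either, with a change of 0.50 (SE 0.12, limma adjusted p = 0.178). Plvap, the diaphragm protein of capillary pores, was at -0.068 (SE 0.17), and the basement membrane collagens Col4a1 and Col4a2 were at 0.32 (SE 0.15) and 0.22 (SE 0.13). Over the 56 tested genes of these 3 endothelial lists, 5 lay wholly higher in the knock-in and 0 wholly lower, beside 3.96% and 3.2% of all tested genes, and none of the 5 passed over all genes.

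**Figure D4:**
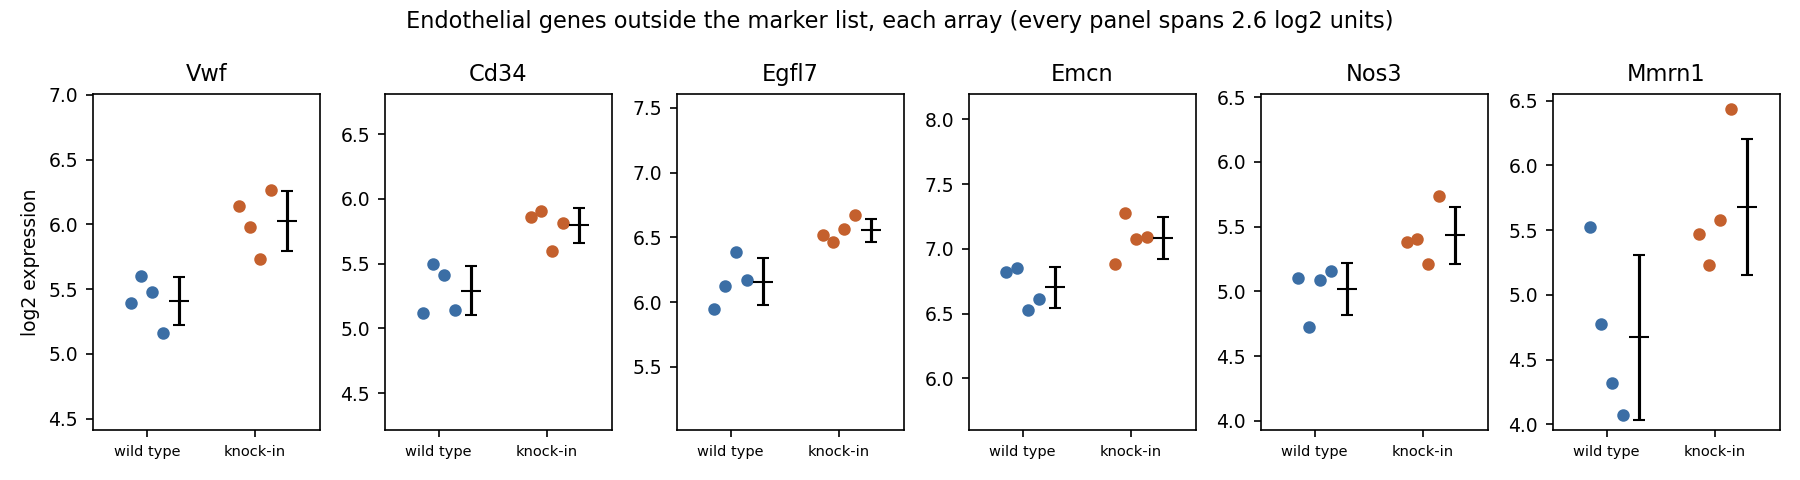
Log2 expression (y axis, 1 panel per gene, all panels of equal height) of 6 endothelial genes outside the marker list in the 4 wild type (blue) and 4 knock-in (orange) arrays, with the mean and SD of each group beside the points. In Vwf, Cd34, Egfl7, Emcn and Nos3 the 4 knock-in arrays lie above the 4 wild type arrays, and in Mmrn1 wild type replicate 1 overlaps them. The 6 genes were picked after values were seen, all with a higher knock-in mean, and do not stand for their lists. Of the 56 tested genes of the 3 other endothelial lists, 33 were higher, against 51.1% of all tested genes. Mmrn1 is from the lymphatic list, where 2 genes were higher and 4 lower.

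Lymphatic endothelium, which also carries Lyve1, was read through 6 tested genes, of which 2 were higher and 4 lower, with a median of -0.11. Their mean log2 levels overlapped, being 6.86 to 7.18 in wild type against 7.02 to 7.43 in knock-in arrays. Of these genes, Reln is also on the stellate cell list and Flt4 on the list of other sinusoidal genes. The counts, median and mean levels therefore do not read lymphatic endothelium alone. Mmrn1, multimerin of platelets and endothelium, was at 5.53, 4.77, 4.32 and 4.07 in wild type and 5.47, 5.23, 5.58 and 6.44 in knock-in arrays. Its change was 1.01 (SE 0.34, limma adjusted p = 0.325), and it was highest in knock-in replicate 4, where Lyve1 was the lowest of its group. The lymphatic surface protein Pdpn was at -0.15 (SE 0.16). Among macrophage genes, Cd163, the hemoglobin scavenger receptor, was at 0.45 (SE 0.15, limma adjusted p = 0.309), and Timd4 and Folr2 were at -0.051 (SE 0.20) and -0.15 (SE 0.22). The part of these cells in the value of Lyve1 was not tested.

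Kupffer cell markers had 8 of 14 higher (7 after a further quantile normalization), with a median of 0.022, and overlapping mean log2 levels (wild type arrays 8.33 to 9.01, knock-in arrays 8.26 to 8.81). The iron exporter Slc40a1, which hepatocytes also express, was at 0.21 (SE 0.08). It was the 1 of the 14 with an unadjusted p under 0.05, where 11.3% of all tested genes were, and the 1 whose groups did not overlap, where 7.16% were, so neither count exceeds the background. Stellate cell markers had 8 of 14 higher with a median of 0.026, and those with the smallest p were Rgs5 at 0.19 (SE 0.10) and Col3a1 at 0.53 (SE 0.36). Rgs5 was at 0.52 when its probe sets were averaged, and Col3a1 was at 0.27 without wild type replicate 3, 0.33 without knock-in replicate 4 and 0.80 without wild type replicate 2. Hepatocyte markers had 9 of 10 higher with a median of 0.017, with Cyp3a11 at 0.19 (SE 0.17) and Ass1 at 0.21 (SE 0.26). On leaving out 1 array, Cyp3a11 ran from 0.078 (without wild type replicate 3) to 0.31 (without wild type replicate 1), and Ass1 from -0.0017 (without wild type replicate 1) to 0.41 (without wild type replicate 4). Cholangiocyte markers had 2 of 4 higher, with Sox9 at -0.11 (SE 0.13) and Krt19 at 0.10 (SE 0.20). Sox9 ran from -0.19 (without knock-in replicate 2) to -0.037 (without knock-in replicate 3), and Krt19 from -0.093 (without knock-in replicate 3) to 0.24 (without knock-in replicate 4). T and NK cell markers had 3 of 7 higher, among them the receptor Il7r at 0.76 (SE 0.24). B and plasma cell markers had 4 of 7 higher, among them the antibody joining chain Jchain at 1.04 (SE 0.25). Neutrophil markers had 1 of 3 tested higher, with Csf3r at -0.20 (SE 0.12) and Cxcr2 at -0.14 (SE 0.17), and the defining S100a8, S100a9, Ly6g, Mpo and Ngp were too dim to test. Cxcr2 was at -0.0044 without wild type replicate 1 and -0.25 without knock-in replicate 1, and Csf3r was at -0.11 without knock-in replicate 2. In these 7 lists 0 genes passed over all genes.

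**Figure D5:**
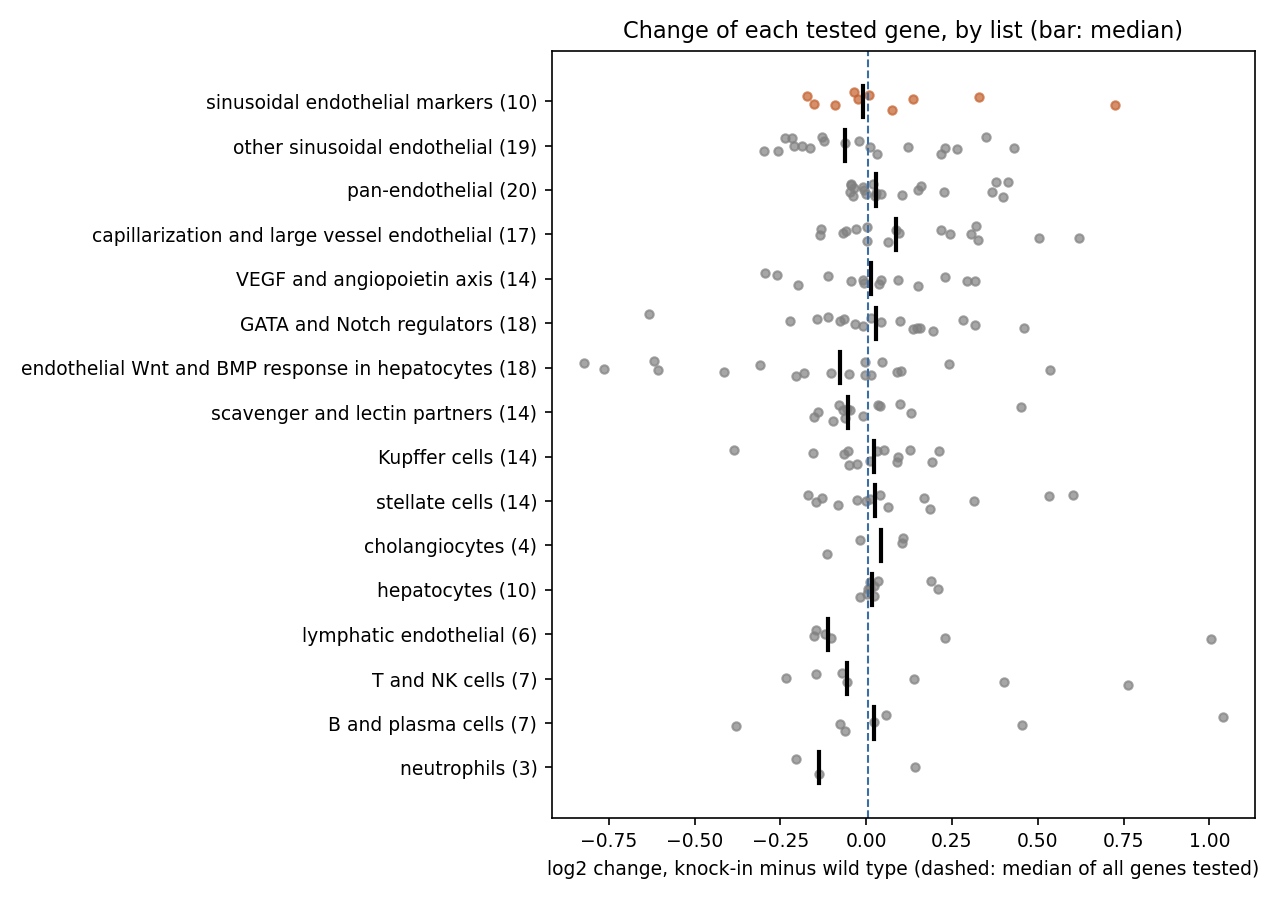
Log2 change, knock-in minus wild type (x axis), of each tested gene in the marker set (orange) and in the other lists (grey, y axis, number tested in brackets), with a black bar at each list's median and a dashed line at the median of all tested genes (0.0046). The marker set is centred near 0 with Lyve1 alone at its far right, and list medians run from -0.14 to 0.09.

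The VEGF and angiopoietin axis, whose ligand VEGF-A acts through Kdr and whose angiopoietins act through Tek, had 7 of 14 tested genes higher and 7 lower (9 and 5 after a further quantile normalization), with 0 past the test. The ligand Vegfa was at -0.20 (SE 0.09, limma adjusted p = 0.450), from 9.94 to 10.22 in wild type against 9.83 to 9.97 in knock-in arrays. The coreceptors Nrp1 and Nrp2 were at -0.30 (SE 0.14) and -0.26 (SE 0.14). Vegfa, Nrp1 and Nrp2 were chosen after values were seen, and no lower gene of this list had an unadjusted p under 0.05. Vegfb, which binds Flt1 and not Kdr, was at 0.32 (SE 0.11, limma adjusted p = 0.322) and Flt1 at 0.044 (SE 0.11).

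Among 18 GATA partners and Notch pathway genes, 10 were higher and 8 lower, with a median of 0.028 and 0 past the test. The Notch ligand Jag1 was at -0.63 (SE 0.22, limma adjusted p = 0.325) and the Notch target Hey1 at 0.46 (SE 0.18, limma adjusted p = 0.373). Of the genes that work with GATA4, its relative Gata6 was at -0.077 (SE 0.12), the cofactor Zfpm1 at -0.14 (SE 0.14) and Zfpm2 at -0.22 (SE 0.39). None of them had an unadjusted p under 0.05, and they were chosen after values were seen. The sign of the Gata4 change itself did not hold on leaving out each array, so no shared direction is read from them.

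The endothelial ligands that reach hepatocytes were mixed. Wnt9b, which acts with Wnt2, was at 0.43 (SE 0.22), from 4.08 to 4.70 in wild type against 4.33 to 5.15 in knock-in arrays. Rspo3, which amplifies Wnt signals, was at -0.19 (SE 0.15), and the BMP ligands Bmp2 and Bmp6 were at -0.061 (SE 0.10) and -0.16 (SE 0.12). None of these 4 reached an unadjusted p of 0.05.

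Genes through which hepatocytes answer these ligands had 6 of 18 higher and 12 lower, with a median of -0.077 and 0 past the test. At unadjusted p under 0.05, 2 were higher and 4 lower, beside 6.01% and 5.29% of all tested genes. Wholly apart were 2 genes higher (Slc1a2, Rhbg) and 3 lower (Atoh8, Tbx3, Hamp), beside 3.96% and 3.2% of all tested genes. The BMP-responsive transcription factor Atoh8 read 7.82, 8.19, 8.22 and 8.02 in wild type and 7.11, 6.92, 7.35 and 7.80 in knock-in arrays, without overlap (change -0.76, SE 0.19, limma adjusted p = 0.191). Id1, another BMP target, was at -0.61 (SE 0.22), and Tbx3, a Wnt target of hepatocytes, at -0.82 (SE 0.27). Slc1a2, a glutamate transporter of the central vein zone, was at 0.24 (SE 0.09). Outside the naming rule and chosen after values were seen, the Wnt target Axin2 was at -0.62 (SE 0.26) and Rhbg, an ammonium transporter of the same zone, at 0.53 (SE 0.20). Of the central vein zone and Wnt genes named here, Axin2 and Tbx3 lay below 0 and Slc1a2 and Rhbg above it. A link between these genes and the Wnt ligands was not tested. Hamp, which encodes hepcidin, was at -0.10 (SE 0.07) near the top of the scale at 12.94 to 13.12, where changes are compressed.

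Other scavenger and lectin genes had 5 of 14 tested members higher and 9 lower, with a median of -0.052. Apart from Cd163, the other 13 lay between -0.15 and 0.13, and 0 passed over all genes.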

How the data were processed

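The authors deposited normalized log2 intensities for every probe set on every array. RMA and limma appear, with no version, in the submitters' processing notes. Which annotation version and genome build the array rests on is not given. RMA makes array distributions nearly equal and compresses changes of dim and of very bright probe sets. Precision is limited by having 4 arrays a group.

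Of 41345 probe sets, 23521 had exactly 1 gene symbol, 1814 several and 16010 none listed. Each gene was read from its brightest probe set, by mean of all arrays (22180 genes), and 13449 genes above the 40th percentile of the array's named probe sets in at least 4 of 8 arrays were tested. The genotypes were compared in limma 3.58.1 under R 4.3.3 (two-sided, genotype as the only term, Benjamini-Hochberg over all tested genes). The fit was tested on simulated data. The dim limit, the tests and the alternatives follow an earlier account of these data, and the members and lists were chosen with earlier results of these data known. Named were all 10 markers, up to 4 genes per list with the smallest unadjusted p under 0.05 or else 2, and the 5 genes outside all lists most like the markers in pattern, leaving out unnamed gene models; further genes are given for their role and were chosen after values were seen. Alternatives were no filter, a 60th percentile filter, a further quantile normalization, the mean of probe sets, a trended and robust prior, array weights, the replicate number as a block, an exact permutation test and leaving out each array.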

Additional observations from a re-analysis of the deposited data

Results flagged for a closer look

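In 43 named genes, 86 groups of 4 arrays were examined for a single array far from the other 3, and 4 groups had one; chance gives about 1 in 20. In Kdr, knock-in replicate 4 was at 9.33, with the other knock-in arrays at 9.19 to 9.21. In Nos3, wild type replicate 2 was at 4.72, with the others at 5.09 to 5.16. In Sox9, a cholangiocyte marker, wild type replicate 2 was at 6.40, with the others at 6.10 to 6.14. In Got1, knock-in replicate 1 was at 12.46, with the others at 12.55 to 12.56.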

How the results depend on the processing

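Of the 10 markers, 0 passed in any of the 15 alternative fits, or in the 14 that hold Wnt2, which the stricter filter leaves out. The limma adjusted p of Lyve1 ran from 0.175 without knock-in replicate 4 to 0.529 without knock-in replicate 2. In 6 of 10 markers the sign held throughout. Leaving out each array in turn gave changes of -0.039 to 0.073 for Clec4g, -0.054 to 0.0037 for Fcgr2b, -0.078 to 0.0019 for Stab1 and -0.27 to 0.0037 for Gata4, a median of the markers of -0.024 to 0.036, and 0 to 2 markers whose groups did not overlap. Of 33 other named genes 28 kept their sign and 0 passed in any fit that holds them. The stricter filter leaves out Nos3, Icam2, Hey1, Krt19, Il7r, Jchain, Cxcr2 and Fgd2 as too dim. On leaving out 1 array, Ass1 ran from -0.0017 to 0.41, Akap8 from -0.031 to 0.11, Fgd2 from -0.19 to 0.41, Krt19 from -0.093 to 0.24 and Atxn2l from -0.10 to 0.069, with Atxn2l at 0.0072 under array weights. The count over all genes, 9 as reported, was 2 with no filter, 32 with the stricter filter, 24 when probe sets were averaged, 73 with the trended and robust prior, 25 with array weights and 1 to 12 on leaving out each array; beyond fewer genes or arrays, the cause was not tested. With the replicate number as a block it was 2, and no marker's call changed. The numbers are not stated to pair samples: same-numbered arrays had deviations that correlated at 0.10, -0.11, -0.034 and -0.039.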
